A study of Oryza sativa and Arabidopsis thaliana with 28 samples.

Results

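Rubisco, the enzyme that fixes CO2 in the Calvin cycle, is built from large subunits encoded in the chloroplast (rbcL) and small subunits encoded by a nuclear RBCS gene family. The small subunits are made on cytosolic ribosomes, imported into the chloroplast and assembled with the large subunits with the help of chaperonins and assembly factors. Rubisco activase (RCA) is an ATPase that frees blocked active sites of the enzyme. The genes followed here were the Arabidopsis small subunit genes RBCS1A (AT1G67090), RBCS1B (AT5G38430), RBCS2B (AT5G38420) and RBCS3B (AT5G38410), and RCA (AT2G39730). They were chosen by name, 5 genes in all, and 4 of them were among the 21174 genes of the ribosome table. RBCS1A was not analysed here.

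All samples were Col-0 seedlings grown on diluted MS medium with sucrose in long days, and the labels name no mutant or transgene in these groups. Input mRNA (2 libraries) was compared with RNA of ribosome-nascent chain complexes (RNC, 2 libraries), which were pelleted through sucrose from a lysate made with cycloheximide. The labels give no age for these libraries and do not say that the replicates came from separate cultures, so their p-values cover only the spread between these libraries. N4-acetylcytidine (ac4C), a modified cytidine of RNA, was mapped by ac4C-seq in mRNA of day 10 seedlings treated with 100 mM NaCNBH3 in acid for 20 min at 20 °C (1 library), against a control in the same acid without NaCNBH3 (1 library). Reduced ac4C is read as T.

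Taking the smallest mRNA value above 0, after multiplying by gene span, as 1 read, the mRNA libraries had totals of 39128550 and 39339118 reads. Genes of the table took 18768358 and 18847446 of them, and 21158025 and 19593759 reads could be recovered for RNC. Of the root markers, all 5 were in the table, and their summed mRNA level was 433 and 413 RPKM (reads per kilobase, scaled to the library total), nearly all of it PYK10, a root glucosidase, at 424 and 402. As leaf genes, the 4 genes followed here summed to 5877 and 5827 RPKM, so they are no independent marker of tissue. BCA1, a leaf carbonic anhydrase outside this set, was at 362 and 373 RPKM. None of the 4 seed storage markers was among the genes used. In bulk seedling RNA, fewer cells of a type and less RNA per cell cannot be told apart.

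The 4 genes lay on the minus strand of TAIR10. RBCS3B (chromosome 5, 15376988 to 15378642), RBCS2B (15380907 to 15382071) and RBCS1B (15383167 to 15385320) stood in a row within 8333 bases, with gaps of 2264 and 1095 bases. RCA lay on chromosome 2 (16570746 to 16573692). The RBCS copies are close relatives, and how reads shared between copies were counted is not given in the sources used here, so the split of reads among them is uncertain.

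In input mRNA, all 4 genes were among the most abundant of the table. RBCS3B stood at 2365 and 2265 RPKM in the 2 mRNA libraries, rank 9 of 21174 genes. RCA stood at 1801 and 1888 RPKM, rank 13, and RBCS2B at 1320 and 1308 RPKM, rank 21. RBCS1B, the lowest, stood at 390.1 and 365 RPKM, rank 76. As means, these levels were 2315 ± 70.8 RPKM for RBCS3B, 1845 ± 61.7 for RCA, 1314 ± 8.86 for RBCS2B and 378 ± 17.5 for RBCS1B (SD, n = 2). No library of one gene overlapped with those of its neighbour in this order. The order depends on the gene span used as length: by mRNA reads alone, RCA was at rank 4 and RBCS3B at rank 9.

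In the RNC libraries the deposited values were 4875 and 4878 RPKM for RBCS3B (mean of its 3 transcripts), 5494 and 5374 for RCA (mean of 2 transcripts), 1037 and 1057 for RBCS2B, and 545 and 543 for RBCS1B. RCA stood above RBCS3B on this scale and below it in the mRNA. For each gene the RNC and mRNA libraries lay apart, as they did for 79.0% of tested genes higher in RNC and 15.4% lower. The RNC values carry a length that differs between transcripts of a gene that share the same reads. In the authors' deposited table, the RBCS3B transcripts were listed first to last at RNC means of 2193, 9134 and 3302 RPKM, with translation efficiencies (natural log of RNC over mRNA) of -0.05, 1.37 and 0.36. The highest and lowest RNC value of RBCS3B thus differed 4.16-fold with the same reads, against 1.05-fold for RCA and a median of 1.59-fold over 9065 genes with several transcripts.

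The reads behind the RNC values were therefore recovered and set over the same gene span as the mRNA. RBCS3B had 153085 and 147395 mRNA reads and 244086 and 226084 RNC reads. RCA had 207619 and 218843 mRNA reads and 329070 and 297919 RNC reads, the most of the 4 genes in every library. RBCS1B had 32866 and 30946 against 50179 and 46333 reads. RBCS2B alone had fewer RNC than mRNA reads, 60136 and 59886 against 40682 and 38405. Together the 4 genes took 2.42% and 2.43% of the mRNA reads of the table and 3.14% and 3.11% of the RNC reads.

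**Figure D1:**
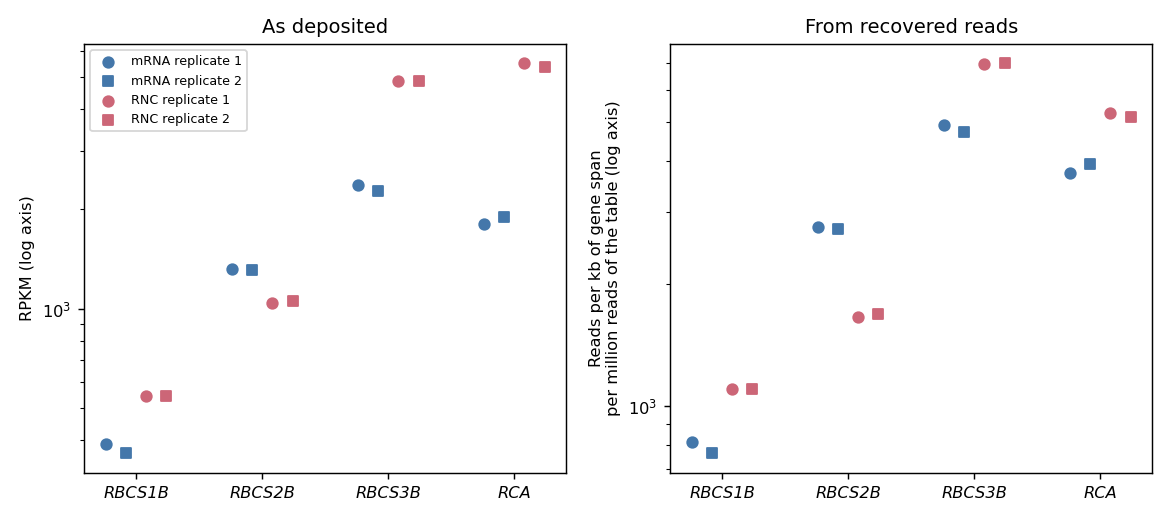
Level of each gene in the 2 mRNA (blue) and 2 RNC (red) libraries, circles for replicate 1 and squares for replicate 2, as deposited RPKM (left) and as reads per kilobase of gene span scaled to the reads of the table (right), both on log axes. RBCS2B is the 1 gene whose RNC points lie below its mRNA points on both scales, and RCA stands above RBCS3B in RNC only on the left.

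Per kilobase of gene span and scaled to the reads of the table, RBCS3B went from 4830 ± 144 in mRNA to 6975 ± 0.958 in RNC, and RCA from 3848 ± 132 to 5220 ± 83.6 (SD, n = 2). RBCS1B went from 788 ± 35.9 to 1100 ± 2.28, and RBCS2B from 2741 ± 16.2 to 1668 ± 22.7. For each gene the RNC and mRNA libraries did not overlap. Over all genes tested on this scale, 33.5% lay without overlap higher in RNC and 36.0% lower.

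The comparison of RNC with mRNA asks how far each transcript was associated with ribosomes. The deposited values cannot answer this by themselves, since RNC and mRNA values were divided by different lengths. The RNC length did not follow the gene span used for mRNA (Spearman rho 0.02 across 38973 transcripts, several of them for some genes). That length was recovered with the reads, and like them can come out divided by a whole number, which can weaken this correlation. The deposited differences below therefore mix the reads with that length. On the deposited values, RBCS1B, RBCS3B and RCA were higher in RNC and RBCS2B was lower (limma on log2(RPKM + 1), Benjamini-Hochberg adjusted p under 0.05). Of 16487 genes tested, 76.1% were called higher and 13.1% lower, so a gene called higher here was in the position of most genes. RCA differed by 1.56 (log2, SE 0.03, limma adjusted p = 1.9e-13) and RBCS3B by 1.07 (SE 0.03, adjusted p = 3.8e-12). RBCS1B differed by 0.53 (SE 0.04, adjusted p = 5.5e-08) and RBCS2B by -0.33 (SE 0.03, adjusted p = 9.0e-07).

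The median of all tested genes was itself shifted by 0.98 on this scale. Relative to that median, RCA stood at 0.58, RBCS3B at 0.10, RBCS1B at -0.45 and RBCS2B at -1.30. After centring each library on its median, 38.7% of genes were called higher and 43.8% lower, RBCS1B turned to -0.52, and RBCS3B, at 0.03, was no longer called (limma adjusted p = 0.57). Taking the first listed transcript of each gene gave -0.08 for RBCS3B (adjusted p = 0.047).

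On recovered reads the median of all genes was -0.01, and 16.6% of 17394 genes were called higher and 20.6% lower. RBCS3B rose by 0.53 (SE 0.03, limma adjusted p = 1.2e-05), RBCS1B by 0.48 (SE 0.04, adjusted p = 7.0e-05) and RCA by 0.44 (SE 0.04, adjusted p = 4.8e-05), which are folds of 1.44, 1.40 and 1.36. These changes were at the 94.5, 93.0 and 91.3 percentiles of the genes tested. RBCS2B fell by 0.72 (SE 0.03, adjusted p = 3.0e-06) and was at percentile 9.59. RBCS2B and RBCS1B have 1 transcript each, and for such genes the recovery can return the reads divided by a whole number. Many of the genes tested also have 1 transcript. The shares over all genes on recovered reads, and the percentiles, can therefore be affected by too low RNC reads of other genes. With its RNC reads doubled, RBCS2B would be 0.28 higher (adjusted p = 0.00029).

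**Figure D2:**
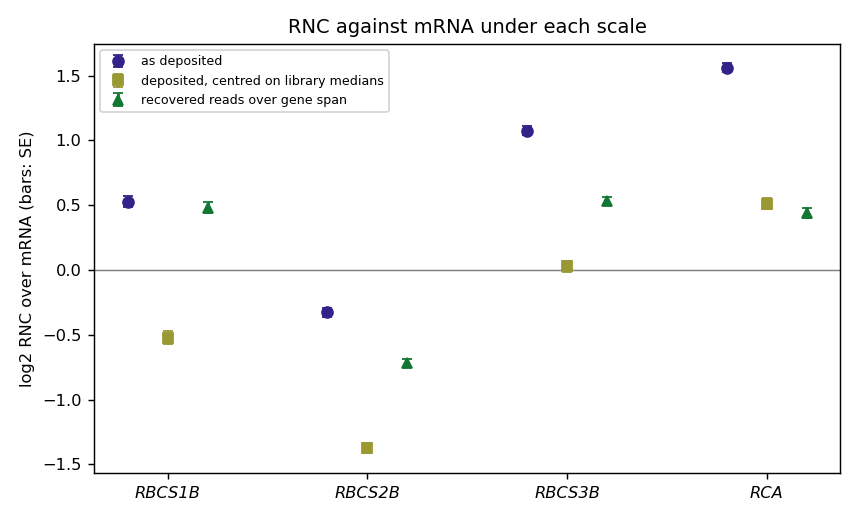
Difference of RNC from mRNA in log2 (bars, SE from limma) for each gene on the deposited values, on the deposited values centred on library medians, and on recovered reads over gene span. RCA is above 0 and RBCS2B below 0 on all 3 scales, while RBCS1B changes sign with centring and RBCS3B falls to 0.03.

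Among the 3 small subunit genes measured (RBCS1A is not in the sum), RBCS3B made up most of the summed level in every library. Its share was 58.0% and 57.5% in mRNA and 71.7% and 71.5% in RNC. RBCS2B made up 32.4% and 33.2% of the mRNA and 17.0% and 17.3% of the RNC, and RBCS1B 9.57% and 9.28% against 11.3% and 11.3%. The means differed by 13.8 percentage points for RBCS3B, -15.7 for RBCS2B and 1.86 for RBCS1B, and no groups overlapped. The shares are parts of the same sum, so a fall of RBCS2B raises the others and these differences are not independent. By level on recovered reads, RBCS1B and RBCS3B rose by similar folds, 1.40 and 1.44, while RBCS2B fell. Levels of 33.5% of all genes tested lay without overlap higher in RNC and 36.0% lower. With 2 against 2 libraries a two-sided exact permutation test cannot go below p = 0.333, which each gene gave. With the RBCS2B RNC reads doubled, the differences were 3.35, -3.57 and 0.21 points. With the deposited RNC values, that of RBCS1B turned to -1.01. The summed RBCS level was 2.26 and 2.09 times that of RCA in mRNA and 1.84 and 1.89 times in RNC. With the RBCS2B RNC reads doubled it was 2.16 and 2.22 times in RNC, within the range of the mRNA libraries. These shares and ratios depend on the gene span used as length. By reads alone, the RBCS sum was 246087 and 238227 against 207619 and 218843 for RCA in mRNA. In RNC it was 334947 and 310822 against 329070 and 297919. Shares by reads alone differed by 10.8 points for RBCS3B, -12.5 for RBCS2B and 1.77 for RBCS1B.

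**Figure D3:**
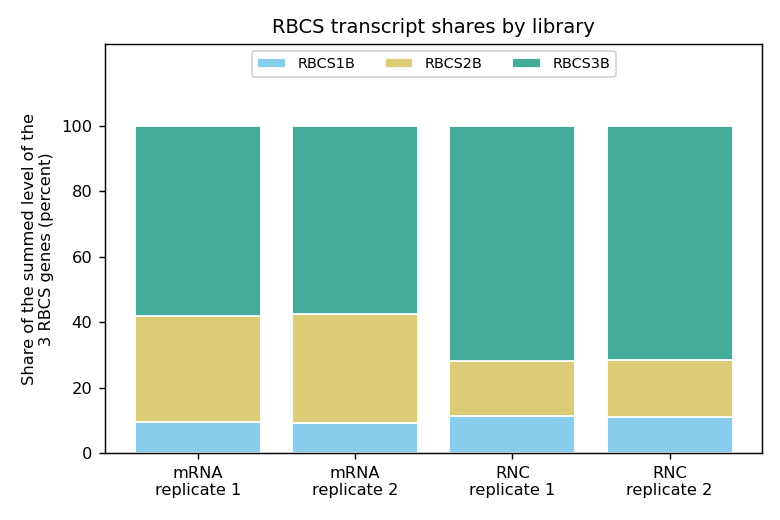
Share of RBCS1B, RBCS2B and RBCS3B in their summed level in each library, with mRNA from deposited RPKM and RNC from recovered reads over gene span. The RBCS3B band widens from 58.0% and 57.5% in mRNA to 71.7% and 71.5% in RNC as the RBCS2B band narrows.

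The large subunit gene rbcL (ATCG00490), the partner of the small subunits, was at 2.34 and 2.56 RPKM in mRNA and 0.951 and 1.06 in RNC, from 132 and 145 mRNA reads and 33 and 34 recovered RNC reads. It was lower in RNC on deposited values (-0.78, SE 0.12, limma adjusted p = 3.8e-05) and on recovered reads (-1.51, SE 0.12, adjusted p = 4.5e-05). As for RBCS2B, the recovered RNC reads can be the true reads divided by a whole number. These few reads give the level in these libraries and not that in the plant.

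Of the factors that fold, assemble or modify Rubisco, 13 of 15 were in the table. On deposited values 11 were called higher and 2 lower, with a median of 1.22 against 0.98 for all genes. Of all genes tested, 76.1% were called higher and 13.1% lower. On recovered reads 4 were called higher, 2 lower and 7 were not called, with a median of 0.08 against -0.01. The shares of all genes on that scale were 16.6% higher and 20.6% lower. CPN60B1, a chaperonin beta subunit, differed by 1.89 on deposited values and rose by 0.56 on recovered reads (SE 0.06, limma adjusted p = 0.00015). RAF2, an assembly factor, differed by 2.05 and rose by 0.32 on recovered reads (SE 0.04, adjusted p = 0.0010). CPN60B3 differed by 3.52 and rose by 0.40 (SE 0.09, adjusted p = 0.011), a call lost without mRNA replicate 1 (adjusted p = 0.053) or RNC replicate 2 (0.058). CPN60A1, a chaperonin alpha subunit, differed by 1.95 on deposited values and by 0.01 on recovered reads (adjusted p = 0.91).

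Of the other Calvin cycle genes, 18 of 19 were in the table, 12 called higher, 4 lower and 2 not called on deposited values (median 0.86). On recovered reads 5 were higher, 7 lower and 6 not called (median -0.07). Of all genes tested, 76.1% were called higher and 13.1% lower on deposited values, and 16.6% and 20.6% on recovered reads. PRK, phosphoribulokinase, which makes the CO2 acceptor, differed by 2.13 on deposited values and rose by 0.32 on recovered reads (SE 0.04, limma adjusted p = 0.00029). TKL1, a transketolase, differed by 2.75 and by 0.11 on recovered reads (SE 0.04, adjusted p = 0.049). That call was lost with any 1 library left out (adjusted p from 0.083 to 0.18) and with the replicate block (0.094). RPE, ribulose-phosphate epimerase, differed by 2.83 and by 0.01 on recovered reads (adjusted p = 0.92). GAPA, a glyceraldehyde-phosphate dehydrogenase subunit, turned from 2.06 on deposited values on recovered reads to -0.38 (SE 0.04, adjusted p = 0.00017).

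The carbonic anhydrase BCA1, abundant in leaves, showed the widest gap between the scales among the genes of these lists called higher on deposited values. It was at 362 and 373 RPKM in mRNA and 6166 and 6384 in RNC, a difference of 4.09 that became 0.05 on recovered reads (limma adjusted p = 0.39, or 0.045 for a difference of 0.13 after centring on library medians). BCA2 differed by 2.92 and by 0.11 on recovered reads (SE 0.04, adjusted p = 0.043). Its call was lost with any 1 library left out (adjusted p from 0.070 to 0.19) and with the replicate block (0.084). Of the 4 root markers tested, 3 were called higher on deposited values and 0 on recovered reads by limma, where all 4 had an adjusted p of 0.062 or more. The shares of all genes called higher were 76.1% and 16.6%. After centring the recovered reads, SCR, a root transcription factor, was called higher (0.33, adjusted p = 0.017). PYK10 differed by 2.11 and by -0.02.

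**Figure D4:**
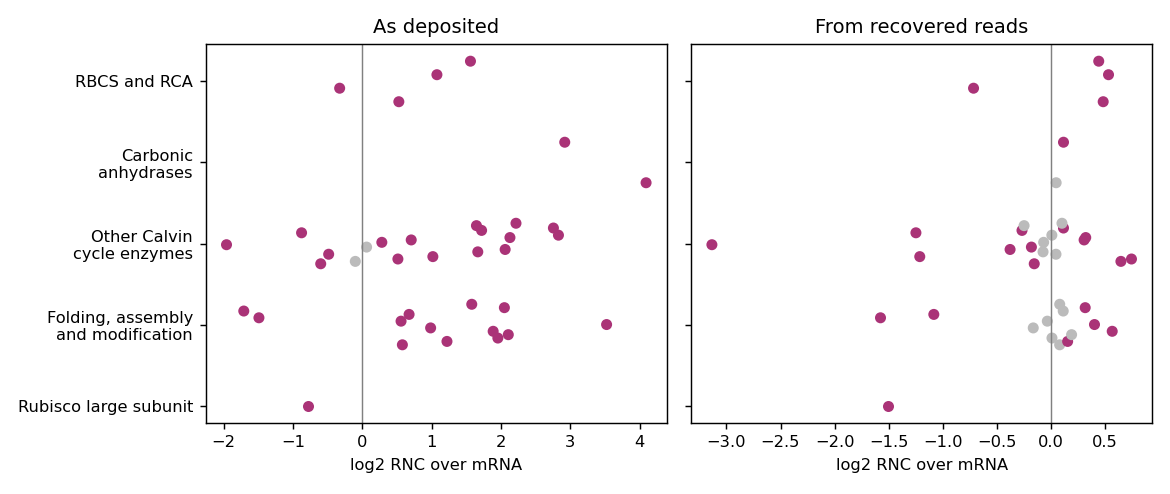
Difference of RNC from mRNA in log2 for each gene (points) by list, on deposited values (left) and on recovered reads (right), purple for an adjusted p under 0.05 and grey otherwise. Most genes of the lists lie to the right of 0 on the left, while on the right the folding and Calvin cycle genes have medians of 0.08 and -0.07.

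By Euclidean distance over the 4 libraries (log2(level + 1), mRNA as RPKM and RNC from recovered reads over span), the gene nearest to RCA was AT3G54890 (0.22) and the nearest to RBCS1B was AT1G23310 (0.19). PRK was the third nearest to RBCS1B (0.38) and GAPA the second nearest to RBCS2B (0.85). For RBCS3B the nearest was AT5G54270 (0.69), and RCA was at 0.76. Distances between the RBCS genes were 2.68 (RBCS1B and RBCS2B), 3.14 (RBCS2B and RBCS3B) and 5.28 (RBCS1B and RBCS3B).

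The ac4C-seq comparison asks where RNA gave more C-to-T reads after reduction. The table of sites lists reference cytosines of the plus strand: genes only on the plus strand held 51590 tested sites and genes only on the minus strand 1999. Since all 4 genes are on the minus strand, 0 sites at cytidines of their mRNAs were available. The listed positions in their spans are guanosines of these mRNAs, so that their T reads are no measure of ac4C. None lay in a plus-strand gene of the table. They show the level of T reads at bases of these transcripts that are not cytidines.

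There were 161 such positions, 46 in RBCS1B, 23 in RBCS2B, 51 in RBCS3B and 41 in RCA. The treated library had the higher rate at 81 (50.3%) and the lower at 13 (two-sided Fisher's exact test, Benjamini-Hochberg adjusted p under 0.05). This share was 94.3% over all 66873 tested sites, 97.4% in plus-strand and 57.3% in minus-strand nuclear genes. The minus-strand sites were shallower, with a median of 654 treated reads. At 5000 or more treated reads the share was 51.0% for the 4 genes and 45.8% for the other minus-strand genes. Each side of the test is 1 library, so it compares these libraries and not the conditions. Sites with under 5 treated T reads were never listed, while sites with 0 control T reads were, 6 of them in the 4 genes. This listing by itself favours higher rates in the treated library. The counts of calls and the median rates, here and per gene, carry that tilt. The positions were deep, with a median of 21027 treated and 57457 control reads. Their median rates were 0.0472% treated and 0.0154% control. At 5000 or more treated reads, the medians were 0.863% and 0.0286% in plus-strand genes and 0.0506% and 0.0129% in the other minus-strand genes.

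The counts of called positions were as follows, in genes that differ in depth and in the number of listed positions. In RCA, 26 positions were called higher and 0 lower. In RBCS2B, 16 were higher and 1 lower. In RBCS3B, 21 were higher and 4 lower, and in RBCS1B 18 and 8. At an adjusted p under 0.001 the positions called higher were 14 in RCA, 10 in RBCS2B and 9 each in RBCS3B and RBCS1B. With the authors' deposited adjusted p they were 15, 11, 13 and 10. No share over all tested sites is set beside the counts at these 2 settings, so they only describe the 4 genes. Only 6 of the 161 were called at least 1 percentage point higher, 3 in RBCS2B, 2 in RBCS3B and 1 in RCA, while 2 in RBCS1B were at least 1 point lower. Of all tested sites 54.2% were called at least 1 point higher. At 5000 or more treated reads this share was 3.82% for the 4 genes and 5.54% for the other minus-strand genes.

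The highest rates were high in both libraries. In RBCS1B at 15385131, 189 bases downstream of the transcript start, the treated rate was 54.0% from 1937 T among 3590 reads (52.3 to 55.6, a 95% Clopper-Pearson interval), against 75.2% (74.2 to 76.3) in the control. At 15385006 the rates were 33.4% (32.0 to 34.9) and 33.6% (32.2 to 35.0), which did not differ by the test (adjusted p = 0.86). In RBCS2B at 15381586 they were 18.9% (18.4 to 19.4) and 12.8% (12.5 to 13.1), and at 15381613 they were 8.94% (8.55 to 9.35) and 1.34% (1.25 to 1.44). In RCA at 16572027 they were 16.4% (15.6 to 17.1) and 9.15% (8.79 to 9.53). In RBCS3B the highest was 3.41% (3.02 to 3.83) against 1.18% (1.08 to 1.28) at 15378256, and at 15377687 the rates were 3.39% and 3.53% (adjusted p = 0.13).

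The deepest position of each gene had a rate between 0.00908% and 0.0281% in both libraries. In RBCS3B at 15377647, 12 of 90897 treated and 13 of 96965 control reads were T. In RBCS1B at 15384462, 8 of 88116 and 9 of 78617 were. The rates were 0.0281% and 0.0199% in RBCS2B at 15381597, and 0.0238% and 0.0239% in RCA at 16571401. The listed positions covered part of each gene: 189 to 946 bases from the start in RBCS1B, 183 to 774 in RBCS2B, 360 to 1059 in RBCS3B and 368 to 2631 in RCA. In RBCS1B all 46 lay nearer to the start than to the end of the span, as did 6 of 41 in RCA. The treated library was the deeper one at 30 positions of RBCS1B and 8 of RBCS3B, and at 0 of RBCS2B and RCA.

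**Figure D5:**
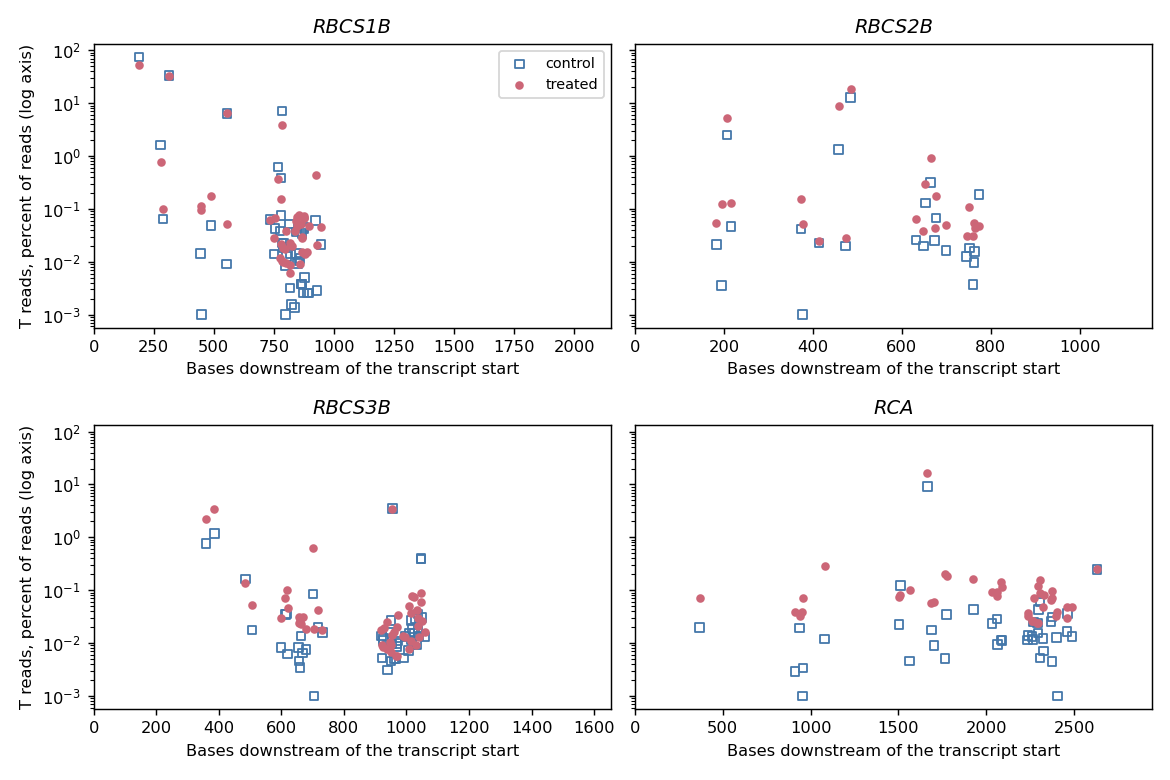
Percent of reads that were T at each listed position (log axis) against its distance from the transcript start, treated (red) and control (open blue squares), with rates of 0 drawn at 0.001%. Most positions lie under 0.1% in both libraries, and the few high ones, such as 54.0% and 75.2% in RBCS1B, are high in both.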

How the data were processed

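Per the submitters' processing notes, STAR 2.5.3a and SAMtools were used with TAIR10; their settings and the counting rule are not given in the sources used here. Per the file headers, the ribosome table holds RPKM values made by the authors and a translation efficiency, which the authors gave as a natural log, the ratio of the RNC mean to the mRNA mean (100% of transcripts). The deposited site table holds counts of T reads and of all reads (the deposited p-value fits the latter reading at 100% of sites, relative tolerance 0.001), with the authors' p-values.

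mRNA values gave whole reads when multiplied by gene span (end minus start) at 100% of values (tolerance 0.01 reads). RNC values share 1 read pair per gene but are divided by another length per transcript (Spearman rho with the span 0.02 across transcripts, which are not independent replicates). RNC reads were recovered from the ratios between libraries and transcripts, and can come out divided by a whole number, mainly in genes with 1 transcript, such as RBCS1B and RBCS2B. RNC values of a gene's transcripts were averaged.

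Log2(RPKM + 1) was tested with limma 3.58.1 (R 4.3.3, eBayes with trend) for genes whose mean was 1 or more, with no block and with Benjamini-Hochberg adjustment over all genes. Reads were not tested with a count model, since the factor above can differ between genes. A two-sided Fisher's exact test was run at sites where each library had 10 or more reads. Intervals are 95% Clopper-Pearson intervals and cover counting error only. Across genes, the deviations of mRNA replicate 1 and RNC replicate 1 from their group means had a correlation of -0.02. With 2 libraries per group this cannot show whether same-numbered libraries are paired. Scripts were tested on simulated data and used Python 3.11.15, scipy 1.17.1 and matplotlib 3.10.9.

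The genes, lists and tests were chosen with earlier results of these data known, and symbols were paired with codes from general knowledge. Named genes were all members, rbcL and from each other list the 4 genes, at most, of lowest adjusted p-value on deposited values. The rule for positions named the 5 highest treated rates, the deepest and those not called. It was written for plus-strand members and was applied to the minus-strand ones, with the positions not called given as counts and examples. The RBCS2B doubling and the use of minus-strand positions were chosen after seeing the data. No reference genome or sequence was used.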

Additional observations from a re-analysis of the deposited data

How the results depend on the processing

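Direction and call of RCA and, on all settings but the doubling of its reads, of RBCS2B were kept under every alternative run. Main counts on deposited values were 12547 genes higher and 2156 lower. Centring on library medians gave 6379 higher and 7216 lower, RBCS1B at -0.52, RBCS3B at 0.026, 7 higher and 5 lower folding and assembly genes, and 9 lower Calvin cycle genes. The first listed transcript gave RBCS3B at -0.078. Recovered reads gave 2896 higher and 3591 lower genes, 4 higher folding genes, and 5 higher and 7 lower Calvin cycle genes. Recovered reads with centring, added after seeing the data, gave 4065 higher and 2885 lower genes, 5 higher and 2 lower folding genes, 6 higher and 5 lower Calvin cycle genes, both carbonic anhydrases higher and 1 root marker higher. With the RBCS2B reads doubled they gave 2897 and 3590 genes, 4 folding genes, 5 and 7 Calvin cycle genes, and RBCS2B at 0.28. Shares with deposited RNC values turned RBCS1B to -1.01 points.

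With the replicate block, deposited values gave 12511 higher and 2139 lower genes, and recovered reads 2961 and 3634 genes, 4 higher folding genes, and 4 higher and 7 lower Calvin cycle genes. The shares differed by 13.6 to 14.1 points for RBCS3B, -16.1 to -15.3 for RBCS2B and 1.72 to 2.01 for RBCS1B when a library was left out. The block changed no call of the 4 genes and ended those of BCA2 and TKL1 on recovered reads. Whether the replicate numbers pair the libraries is not settled. Leaving out each library gave 12137 to 12494 higher genes on deposited values and 2027 to 2215 (2057 and 2147 without RNC replicate 1 and 2) on recovered reads, where 2 to 3 folding genes were higher, and 4 Calvin cycle genes were higher without any one library. A left-out library leaves its group with 1, assumed to vary like the other.

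Over all sites, an adjusted p under 0.001 left 189 lower sites. A difference of at least 1 point left 36217 higher sites, and at least 10 treated T reads left 27629. The positions called higher in RCA fell from 26 to between 13 and 15 with the deposited adjusted p, an adjusted p under 0.001 or 10 treated T reads. No plus-strand member was found, so no value exists for sites of such members. The cause of these changes was not tested beyond what each alternative removes. Depth limits the rbcL value, at 33 and 34 recovered RNC reads, which can also be the true reads divided by a whole number.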

Other observations

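Neighbouring entries of the table had the same length behind the RNC values more often than distant ones, though most neighbours differed. The cause was not tested. Adjacent entries of different genes had the same length in 7.54% of 21173 pairs, against 0.129% of pairs 1000 entries apart. On recovered reads, a difference below -0.7 (log2, a bound chosen after the value of RBCS2B was seen) was present in 14.1% of 9827 genes with 1 transcript, 5.87% of 4103 genes with 2 and 2.40% of 3464 genes with 3 or more. RBCS2B and RBCS1B have 1 transcript in the table, RCA 2 and RBCS3B 3. The part of the recovery in the fall of RBCS2B was not tested.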
